A study of Mus musculus with 4 samples.

Results

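The heat shock proteins examined here are 10 genes for molecular chaperones: Hspa5, Hspa8, Hspa9, Hsp90aa1, Hsp90ab1, Hsp90b1, Hspd1, Hspe1, Hsph1 and Dnajb1. The rule takes them by gene name and uses no measured value, although the list was drawn up with earlier results of these data known. They are 10 of 32565 genes on the array, and every probe that the array's design assigns to one of them was taken, which gave 23 of 56605 probes. Each of the 23 probes was printed as 1 spot, is 60 bases long and was well above local background on all 4 arrays, so that no member was lost to a filter and no member's value is a bound. The number of probes per gene was 4 for Hspa8, 3 for each of Hspa5, Hsp90aa1, Hspe1 and Hsph1, 2 for Hspa9 and Hspd1, and 1 for Hsp90ab1, Hsp90b1 and Dnajb1.

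RNA of mouse CD4+ T cells was hybridised to Agilent arrays in 1 colour. The conditions were WT and Nr4a-TKO naive T cells and the iTreg cells of both genotypes at 3 h of culture, each on a single array. The study asked how the Nr4a nuclear receptors (Nr4a1, Nr4a2 and Nr4a3) act in the early steps by which naive T cells become induced regulatory T (iTreg) cells. No condition had a second array, so the differences below are values without a test.

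All naive cells were sorted CD4+ cells with high CD62L, low CD44 and low CD25 that lacked the Foxp3 reporter, and came from irradiated Rag2-/- hosts, which have no T or B cells of their own, repopulated with donor bone marrow. The groups differed in their chimeras as well as in genotype. Nr4a-TKO cells carry floxed Nr4a1, floxed Nr4a2 and a deleted Nr4a3, and were taken from hosts that had received WT and Nr4a-TKO marrow together. WT cells were taken from hosts of WT marrow alone. The genotype therefore cannot be told apart from the kind of chimera. The Cre line, and whether cells of several mice were pooled, are not given in the sources used here. For the 3 h samples, naive T cells were cultured on plate-bound anti-CD3 at 2 μg/ml with 0.5 μg/ml anti-CD28, 1 μg/ml each of antibodies to IFN-γ and IL-4, 10 ng/ml IL-2 and TGF-β1, for which the culture notes give both 0.2 and 0.5 ng/ml. The change to 3 h thus holds the T cell receptor stimulus, the cytokines and the time in culture together, and these cannot be told apart.

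Chaperones bind unfolded or newly made proteins and help them to fold, assemble or cross membranes. The Hsp70 proteins do so in cycles of ATP hydrolysis that J proteins such as Dnajb1 start and exchange factors such as Hsph1 complete, and Hsp90 proteins act later on kinases, receptors and other clients. Each compartment has its own set: Hspa5 (BiP) and Hsp90b1 (Grp94) in the endoplasmic reticulum (ER), Hspa9 (mortalin) and the Hspd1 and Hspe1 (Hsp60 and Hsp10) chamber in mitochondria, and Hspa8, Hsp90aa1 and Hsp90ab1 in the cytosol. Heat shock factor Hsf1 induces many of these genes after heat or other damage to proteins, while the ER members answer to unfolded protein in the ER. T cells that leave the resting state grow and raise their protein synthesis before they divide.

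The promoter sequences show which members carry the elements through which these responses are known to act. Sequences are from RefSeq on GRCm38.p6 and cover 250 bases before to 50 bases after a start site. Of the 10 members, 6 had an entry (Hspa5, Hsp90b1, Hspd1, Hspe1, Hsph1 and Dnajb1). A heat shock element was searched on both strands as its core of facing units, GAANNTTC or TTCNNGAA, and the search found it in 3 of the 6 members (Hspd1, Hspe1 and Hsph1) and in 15.1% of all 32851 promoters of this length. The same 3 members held the longer form of 3 units, GAANNTTCNNGAA or TTCNNGAANNTTC, which overlaps the core and occurred in 0.603% of all promoters. In Hsph1 the match to the longer form lies after each listed start, outside the stretch printed below, which holds the core alone. The ER stress element, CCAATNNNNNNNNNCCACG or its reverse complement, was in Hspa5 and Hsp90b1 and in 0.119% of all promoters. None of these letters was found in the window of Dnajb1. The search took exact letters only, so elements with imperfect units were not counted. Counted per gene, as the members are, the shares of 27025 genes were 17% (core), 0.662% (longer form) and 0.137% (ER element). The matches of Hspd1 and Hspe1 are the same bases, read from either strand, and not separate sites. In the stretches below the capitals mark the units of the heat shock core in Hspe1 and Hsph1 and both ends of the ER element in Hspa5 and Hsp90b1. They are printed because the genes differ below: the Hspe1 stretch lies between Hspd1 and Hspe1, which are transcribed away from each other. RefSeq lists 2 Hspd1 starts; from 1 of them to the Hspe1 start are 215 bases, and 285 bases of the windows of that pair are the same DNA. The other Hspd1 start lies beyond the Hspe1 start with 94 bases between them, its window shares 4 bases with that of Hspe1, and the search found no motif in it.
Hspe1, chr1:55088038-55088097, + strand: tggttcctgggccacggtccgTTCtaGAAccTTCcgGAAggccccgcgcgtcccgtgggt
Hsph1, chr5:149636347-149636406, - strand: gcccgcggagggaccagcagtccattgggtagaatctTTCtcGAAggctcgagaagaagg
Hspa5, chr2:34772010-34772069, + strand: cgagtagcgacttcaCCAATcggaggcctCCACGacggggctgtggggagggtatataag
Hsp90b1, chr10:86705515-86705574, - strand: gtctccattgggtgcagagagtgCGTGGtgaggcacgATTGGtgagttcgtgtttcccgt

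Values are log2 intensities after background correction and quantile normalization across the 4 arrays, and a difference of 1 is 2-fold, the threshold used throughout. Where a single value stands for a gene it is that of the probe with the highest mean. Between 65.0% and 67.7% of probes were well above background on each array, no spot was saturated, and the 4 arrays were on 1 slide. From the scatter of repeated spots of 1 probe within an array, an SD of 0.17 (log2) was derived for a difference between arrays. It is called the SD of the arrays below. It covers the scatter of spots alone, and not labelling, hybridisation, or the spread between arrays, mice or cultures. All 8 CD4 T cell markers were well above background on every array, with processed intensities of 4721 to 7336 for Cd3e and 1149 to 2614 for Cd4. The 7 naive T cell markers summed to 12026 and 11416 on the naive arrays and to 2852 and 2319 at 3 h. Markers of other cells were present too: all 6 B cell markers were well above background on each array and summed to between 2913 and 3197. Most of that sum came from Cd22, at 2135 to 2519. Of the 8 myeloid markers, between 5 and 7 were well above background on each array. Their sum of 37112 to 40168 came mostly from Itgam, at 34732 to 37385, and Csf1r, at 2289 to 2677, while Lyz2 was at most 14.8 and Adgre1 was not above background on any array. Among CD8 T and NK cell markers Cd8b1 was between 61.7 and 118.6, Cd8a between 7.8 and 13.4, and Ncr1 not above background. The part of these cells in the results was not tested.

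The probes of the targeted genes do not bear out the genotype labels throughout. In naive T cells Nr4a1 was higher by 1.33, and the Nr4a2 probes by 0.19 and 0.76, on the array labelled Nr4a-TKO. The Nr4a3 probes differed there by 0.02, -0.39 and 0.08. At 3 h, Nr4a1 exceeded the WT array by 0.48 on the array labelled Nr4a-TKO, and Nr4a2 did so by 1.37 to 1.38. For Nr4a3 the probes designed on RefSeq transcripts were lower on that array, at -1.85 and -1.46, and the remaining probe was higher, at 0.19. Whether these probes lie in the deleted parts was not analysed here. The arrays are called by their labels below, and every direction between genotypes rests on those labels.

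In WT cells, 4 of the 10 members were more than 2-fold higher at 3 h than in naive T cells and none was more than 2-fold lower. The 4 were Hspd1, Hspa9, Hsph1 and Hsp90ab1. Past the same threshold were 8.42% of the 23194 genes compared, on the higher side, and 8.57% on the lower side. The median difference over the members was 0.88, against -0.05 over all genes. In Nr4a-TKO cells the same 4 members were more than 2-fold higher and none lower, where 7.76% of 23663 genes were higher and 7.88% lower. The members' median there was 0.93, against -0.02 over all genes. Of the 23 probes, 20 were above 0 in each change, and 7 in WT and 9 in Nr4a-TKO were more than 2-fold higher. Probes of 1 gene are not separate evidence, and the same shares over all probes were not counted.

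**Figure D1:**
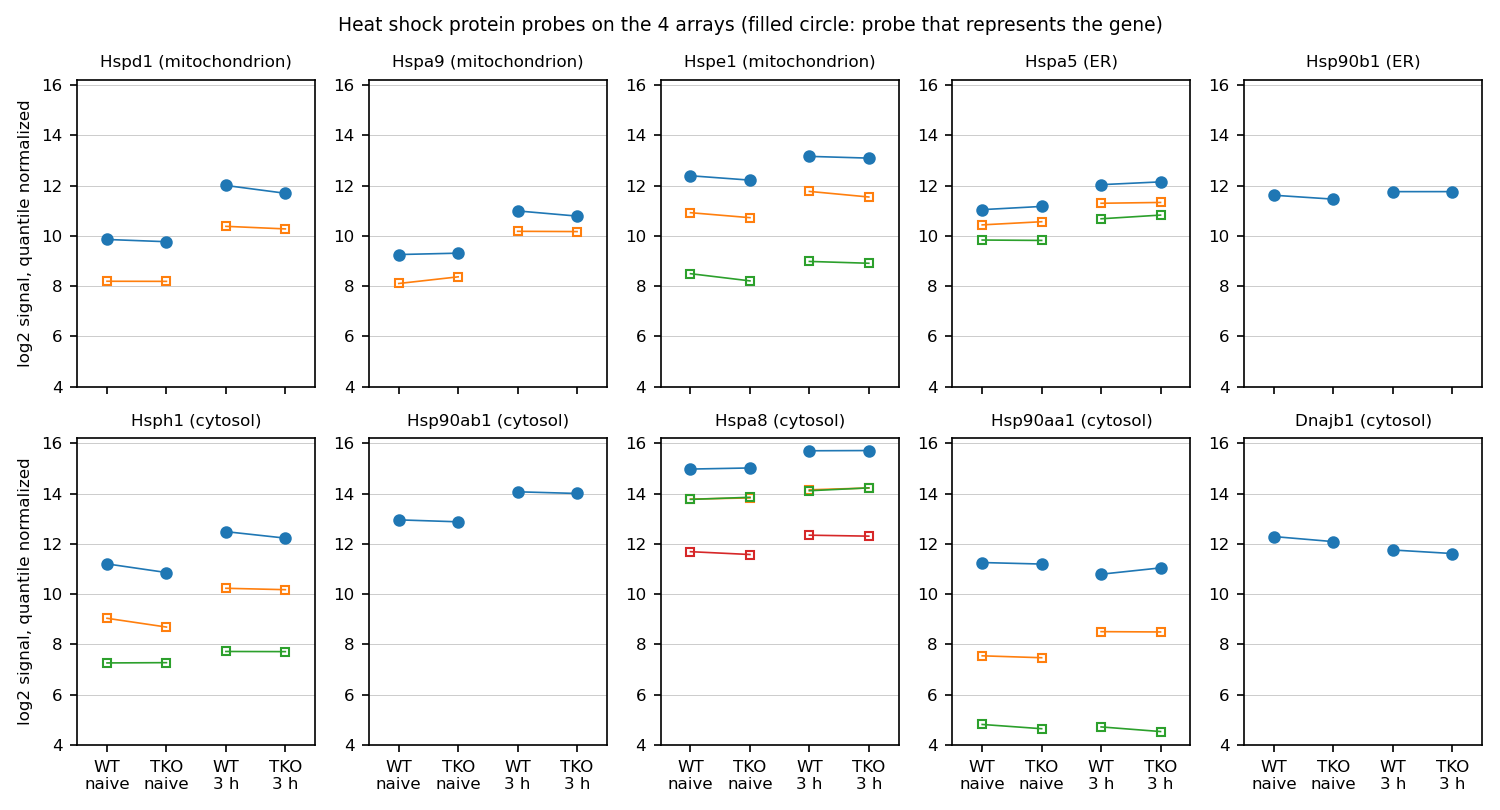
Log2 signal of each of the 23 probes (y axis) on the 4 arrays (x axis), 1 panel per gene with its compartment, 1 colour per probe; lines join the arrays labelled WT and Nr4a-TKO of 1 stage, and there are no replicates and hence no error bars. Both Hspd1 probes and both Hspa9 probes are more than 2-fold higher at 3 h, while the brightest probe of Hsp90aa1 and the probe of Dnajb1 are lower. Heights of different probes are not comparable.

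Of the mitochondrial members, Hspd1 and Hspa9 had the largest changes of the 10 genes, and Hspe1 changed less than Hsph1, Hsp90ab1 and Hspa5. Hspd1, the subunit of the Hsp60 folding chamber, was measured by a probe at chr1:55134829-55134888 on mm9. It read 9.86 on WT naive T, 9.77 on Nr4a-TKO naive T, 12.01 on WT iTreg at 3 h and 11.69 on Nr4a-TKO iTreg at 3 h. The 3 h arrays were both above the naive arrays, WT by 2.15 (4.43-fold) and Nr4a-TKO by 1.93 (3.80-fold). The second Hspd1 probe crosses a splice junction (chr1:55135257-55135404 on mm9, - strand) and so reads spliced RNA. Its sequence is shown with its values because it gave the largest change among the 23 probes in both genotypes.
Hspd1, probe over a splice junction: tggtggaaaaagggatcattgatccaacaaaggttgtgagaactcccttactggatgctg
It read 8.20, 8.19, 10.38 and 10.28 on the arrays in the same order, a difference of 2.18 in WT and 2.09 in Nr4a-TKO. The probes of Hspd1 thus differed from each other by far less than the change itself.

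Hspa9, on chromosome 18, is the Hsp70 that draws imported proteins into the mitochondrial matrix. Its brighter probe read 9.26 on WT naive T, 9.31 on Nr4a-TKO naive T, 10.99 on WT iTreg at 3 h and 10.79 on Nr4a-TKO iTreg at 3 h. The change was 1.74 (3.33-fold) in WT and 1.47 (2.78-fold) in Nr4a-TKO. The other Hspa9 probe, which crosses a splice junction, changed by 2.08 and 1.80. Both probes were more than 2-fold higher in both genotypes.

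Hspe1, which forms the lid of the Hsp60 chamber, was also higher at 3 h on every probe but stayed within 2-fold. Its brightest probe (chr1:55148026-55148085 on mm9) read 12.39, 12.22, 13.16 and 13.09, with the arrays in the same order as above. The differences over its 3 probes ran from 0.49 to 0.85 in WT and from 0.70 to 0.88 in Nr4a-TKO. Hspd1 and Hspe1, which share the stretch printed above for 1 of the Hspd1 starts, therefore differed in the size of their change, as measured by different probes: no Hspe1 probe reached the smallest change of an Hspd1 probe in the same genotype.

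Under the main processing neither ER member was past 2-fold. Hspa5, the main Hsp70 of the ER, was at 11.04 on WT naive T, 11.17 on Nr4a-TKO naive T, 12.04 on WT iTreg at 3 h and 12.15 on Nr4a-TKO iTreg at 3 h. This probe crosses a splice junction (chr2:34630699-34631075 on mm9, + strand), and its sequence is shown because it lies at the 2-fold threshold.
Hspa5, probe over a splice junction: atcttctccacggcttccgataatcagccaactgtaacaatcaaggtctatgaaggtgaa
The difference was 0.99 (1.99-fold) in WT and 0.98 (1.97-fold) in Nr4a-TKO, just inside the threshold. The other Hspa5 probes gave 0.86 and 0.85 in WT and 0.77 and 1.01 in Nr4a-TKO. With the processed intensity scaled to each array's 75th percentile, Hspa5 was past 2-fold, at 1.13 in WT and 1.17 in Nr4a-TKO. It was also past 2-fold with the deposited values, at 1.15 and 1.19, and with centring on the array median, at 1.34 and 1.32. Hsp90b1, the Hsp90 of the ER (chr10:86153693-86153752 on mm9), read 11.62, 11.46, 11.76 and 11.76. Its differences of 0.14 in WT and 0.30 in Nr4a-TKO were less than 2 SD of the arrays, but centring on the array median gave 0.52 and 0.65, which are beyond it. With 75th-percentile scaling they were 0.33 and 0.49, of which the value in Nr4a-TKO is beyond it. The ER element printed above is in both promoters, while only Hspa5 of the pair neared 2-fold under the main processing.

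In the cytosol, Hsph1 and Hsp90ab1 were the members past 2-fold. Hsph1 (Hsp110), an exchange factor for Hsp70, was read by its brightest probe (chr5:150419744-150419803 on mm9) at 11.20 on WT naive T, 10.86 on Nr4a-TKO naive T, 12.49 on WT iTreg at 3 h and 12.23 on Nr4a-TKO iTreg at 3 h. That is 1.28 (2.43-fold) higher in WT and 1.37 (2.58-fold) higher in Nr4a-TKO. The neighbouring probe gave 1.19 and 1.49. The third probe, nearer the gene's start (chr5:150434622-150434681), gave 0.46 and 0.44, so that the probes differed in size though not in direction.

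Hsp90ab1, the constitutive cytosolic Hsp90, has 1 probe (chr17:45704788-45704847 on mm9). It read 12.95 on WT naive T, 12.88 on Nr4a-TKO naive T, 14.07 on WT iTreg at 3 h and 14.00 on Nr4a-TKO iTreg at 3 h. The changes of 1.12 (2.17-fold) and 1.13 (2.18-fold) were nearly equal. Hspa8, the constitutive cytosolic Hsp70, was higher at 3 h on all 4 of its probes, by 0.35 to 0.73 in WT and 0.37 to 0.73 in Nr4a-TKO. Its brightest probe (chr9:40611362-40611421) read 14.97, 15.02, 15.70 and 15.71, with no saturated spot.

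Hsp90aa1, the inducible cytosolic Hsp90, gave different directions on different probes. The sequences of the 2 that disagree most are shown with their places on chromosome 12 of mm9, - strand, because the gene's direction depends on which is read. The first crosses a splice junction.
Hsp90aa1, chr12:111932511-111932796: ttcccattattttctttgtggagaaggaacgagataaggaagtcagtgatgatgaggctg
Hsp90aa1, chr12:111933318-111933377: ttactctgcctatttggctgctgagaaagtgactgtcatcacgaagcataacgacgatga
The first, the brightest of the gene's probes, read 11.26 on WT naive T, 11.20 on Nr4a-TKO naive T, 10.79 on WT iTreg at 3 h and 11.04 on Nr4a-TKO iTreg at 3 h. The second read 7.55, 7.47, 8.51 and 8.50. At 3 h the first was lower, with differences of -0.46 (WT) and -0.15 (Nr4a-TKO), and the second was higher, at 0.96 and 1.02. The third probe, designed on an expressed sequence tag, was near its naive level, at -0.10 and -0.11. Under other normalizations the first probe's difference in Nr4a-TKO turned, to 0.18 with centring on the array median, so no direction is given for Hsp90aa1.

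Dnajb1, a J protein that starts the Hsp70 cycle in the cytosol and a classic target of Hsf1, was lower at 3 h in both genotypes but within 2-fold. Its 1 probe (chr8:86135660-86135719 on mm9) read 12.29 on WT naive T, 12.09 on Nr4a-TKO naive T, 11.76 on WT iTreg at 3 h and 11.62 on Nr4a-TKO iTreg at 3 h. The differences were -0.53 and -0.47. They kept their sign under the other normalizations, which gave as little as -0.20 and -0.11.

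**Figure D2:**
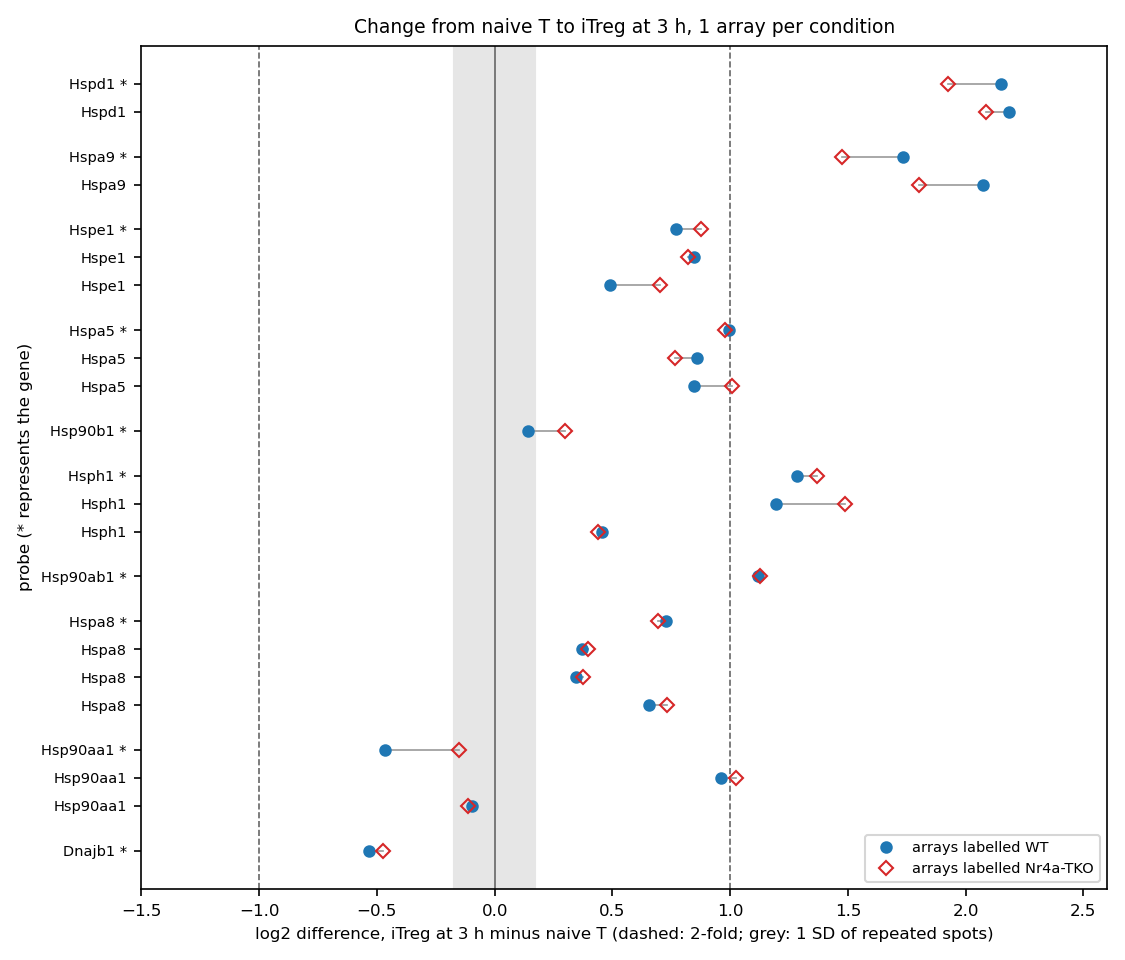
Log2 difference of iTreg at 3 h minus naive T (x axis) for each member probe (y axis), filled circles for the arrays labelled WT and open diamonds for those labelled Nr4a-TKO; dashed lines mark 2-fold and the grey band 1 SD of a difference between repeated spots. Of 23 probes, 20 lie to the right of 0 in each genotype, led by Hspd1 at 2.18, and those to the left belong to Hsp90aa1 and Dnajb1.

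Between the genotype labels no member was past 2-fold at either stage. Over all genes, Nr4a-TKO was higher past this threshold for 1.93% and lower for 1.65% of 23099 genes in naive T cells, and for 1.73% and 1.87% of 23430 genes at 3 h. The members' median difference was -0.08 in naive T and -0.07 at 3 h, against -0.02 and 0.003 over all genes. In naive T the largest difference of any probe was 0.35 in size, for Hsph1, whose values were 9.04 in WT and 8.69 in Nr4a-TKO. Its brightest probe was lower by a similar amount, 11.20 against 10.86, while the probe near the gene's start differed by 0.01. At 3 h the largest was 0.31 in size, for the brightest Hspd1 probe at 12.01 in WT and 11.69 in Nr4a-TKO, and its other probe differed by -0.10. Of the 23 probes, 15 had the lower value in Nr4a-TKO at each stage, and 1 in naive T and none at 3 h differed by more than 2 SD of the arrays. Probes of 1 gene are not separate evidence, and the share of all probes on either side was not counted, so no lean of the members is read from this.

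The change to 3 h itself differed between genotype labels by -0.28 to 0.31 over the 23 probes. The 2 SD of the arrays (0.35) is for a difference of 2 arrays and is not the limit for this one, which takes 4. The lowest values were the 2 probes of Hspa9, at -0.26 and -0.28, and the highest the brightest probe of Hsp90aa1, at 0.31. Of the 6 B cell markers, 4 were higher on the Nr4a-TKO array in naive T (median 0.09) and all 6 at 3 h (median 0.31). Their differences ran from -0.56 to 0.70 in naive T and from 0.07 to 1.14 at 3 h. The 6 summed to 3070 and 2957 in naive T and to 2913 and 3197 at 3 h, WT before Nr4a-TKO. Cd22 made up most of each sum, at 2305 and 2135 in naive T and at 2376 and 2519 at 3 h. Cd79a, with the largest difference of the 6 at each stage, read 138 and 216 in naive T and 78.5 and 173 at 3 h. The part of these markers in the differences between genotype labels was not tested.

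**Figure D3:**
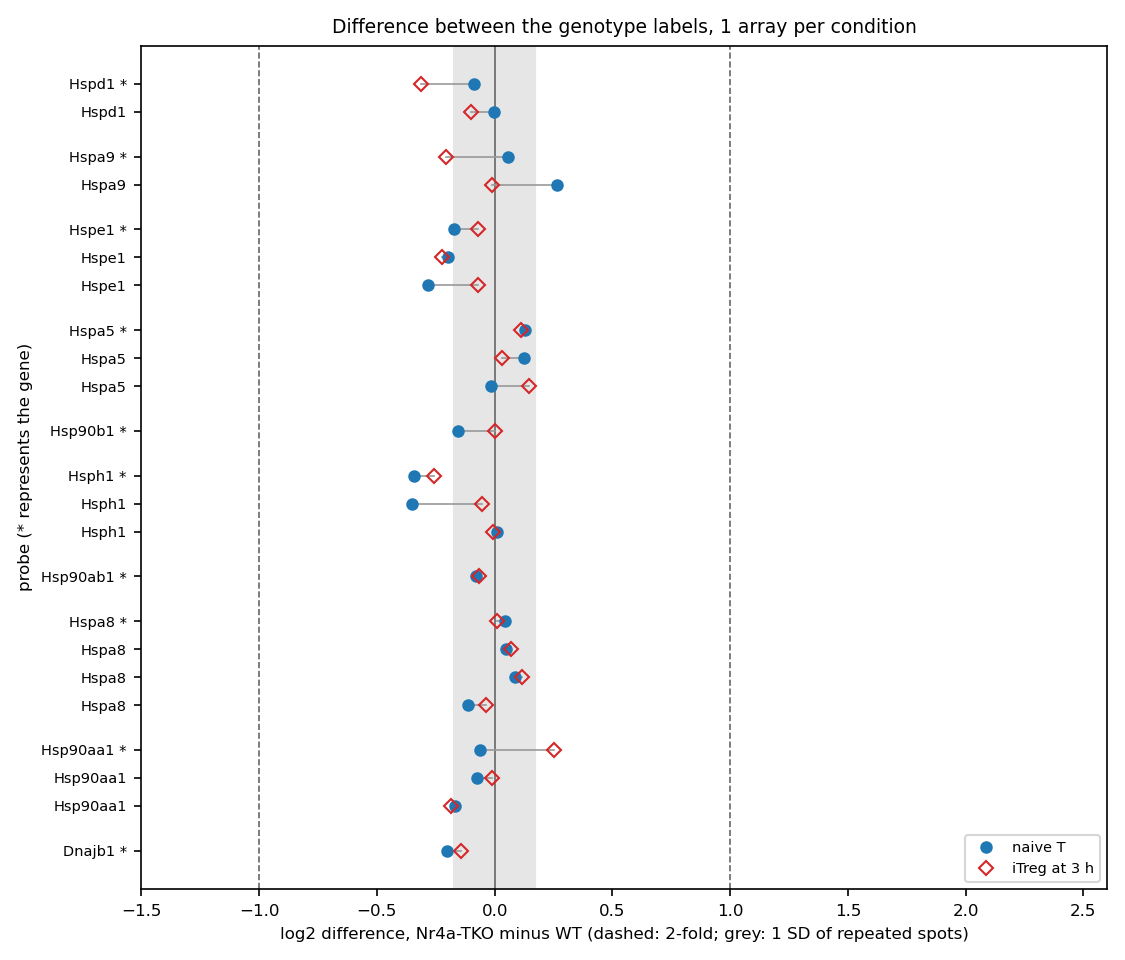
Log2 difference of Nr4a-TKO minus WT (x axis, on the scale of the plot of changes to 3 h) for each member probe (y axis), filled circles for naive T and open diamonds for iTreg at 3 h; dashed lines mark 2-fold and the grey band 1 SD of a difference between repeated spots. All 23 probes lie within 0.35 of 0 at both stages.

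The stress-inducible Hsp70 genes that are not members, Hspa1a and Hspa1b, were far lower at 3 h. They are neighbours on chromosome 17 with nearly the same sequence, and their RefSeq promoter windows are identical at 296 of 300 bases, so that their probes may each read both RNAs. A stretch of those windows that is the same in both genes is shown, since it holds the heat shock core (capitals).
Hspa1a, chr17:34972217-34972276, - strand: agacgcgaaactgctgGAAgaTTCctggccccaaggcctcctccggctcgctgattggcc
Hspa1b, chr17:34959299-34959358, - strand: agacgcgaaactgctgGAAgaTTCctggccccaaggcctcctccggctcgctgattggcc
Hspa1a read 8.49 on WT naive T, 8.50 on Nr4a-TKO naive T, 4.87 on WT iTreg at 3 h and 5.45 on Nr4a-TKO iTreg at 3 h. It was 12.3-fold lower in WT and 8.32-fold lower in Nr4a-TKO. Hspa1b read 8.86, 8.54, 3.92 and 3.86, which is 30.6-fold and 25.8-fold lower. Both naive arrays were thus high and both 3 h arrays low for either gene. The 3 h signals were dim, between 8.6 and 41.4 in processed intensity, and with a background offset of 50 the log2 differences in WT were -2.37 for Hspa1a and -2.98 for Hspa1b. The direction was the same under the 8 other settings that gave a value for them. The heat shock core was thus found both in genes that were lower at 3 h (Hspa1a and Hspa1b) and in genes that were higher (Hspd1, Hspe1 and Hsph1). The longer form of 3 units was found in Hspd1, Hspe1 and Hsph1 but not, in exact letters, in the windows of Hspa1a and Hspa1b. Imperfect units were not searched, and the Hspd1 and Hspe1 matches are the same bases, so no link of form and direction is read. The part of either form in these changes was not tested.

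The other chaperone genes, 111 in 6 lists by role, were read in the same way. In WT 107 were measured, of which 26 were higher past the threshold and 6 lower, with a median of 0.56. In Nr4a-TKO 29 were higher and 4 lower, also with a median of 0.56. Among 12 housekeeping genes 1 was more than 2-fold higher in each genotype, and their medians were 0.29 and 0.20.

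The mitochondrial list had the highest median of the chaperone lists, though below that of the mitochondrial members, 1.74 in WT and 1.47 in Nr4a-TKO. Of 23 genes for mitochondrial folding and import, 10 were more than 2-fold higher and none lower in WT, with a median of 0.88, and the counts in Nr4a-TKO were the same with a median of 0.83. Tomm40, the channel of the outer membrane, went from 7.32 to 9.58 in WT and from 7.23 to 9.36 in Nr4a-TKO, while the differences over its 4 probes ran from -0.73 to 2.27 in WT. Timm50, a receptor of the inner membrane's import complex, was higher by 2.13 in WT and 1.13 in Nr4a-TKO, from naive values of 6.35 and 7.18. Its other probe gave 1.37 and 1.35, with the naive difference between genotype labels at -0.26 in place of 0.83, so that the unequal change was seen on 1 probe. The lowest differences in WT were those of the proteases Lonp1, at -0.94, and Spg7, at -0.73. Lonp1 was the 1 chaperone-list gene past 2-fold between the genotype labels: its 1 probe read 6.93 on WT naive T, 4.73 on Nr4a-TKO naive T, 5.99 on WT iTreg at 3 h and 6.08 on Nr4a-TKO iTreg at 3 h. The Nr4a-TKO naive array stood apart from the others for it.

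Among the 26 cytosolic cochaperones of Hsp70 and Hsp90, 7 were more than 2-fold higher and 1 lower in WT, with a median of 0.67, and 10 were higher and none lower in Nr4a-TKO, with a median of 0.70. Ppid, a prolyl isomerase that binds Hsp90, was higher by 1.76 and 1.82. Tomm70a, the mitochondrial receptor that takes up Hsp70 and Hsp90 clients, was higher by 1.37 and 1.32. At the low end were Sugt1, at -1.07 in WT and -0.42 in Nr4a-TKO, and Fkbp8, at -0.73 and -0.68, whose other probes ran from -0.37 to 0.10 in WT.

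Of the 25 ER genes, 4 were more than 2-fold higher and 2 lower in WT, with a median of 0.31. In Nr4a-TKO 4 were higher and 1 lower, with a median of 0.34. Ero1a, an oxidase that serves disulphide formation, was higher by 1.75 and 1.31 on its 1 probe. Sil1, the exchange factor for Hspa5, was higher by 1.60 and 1.90 on its brightest probe, designed on a cDNA, but its probes on the RefSeq transcript gave -0.16 and -0.16, and 0.38 and 0.09, so no direction is given for it. Dnajc3, an ER J protein, was lower, at -1.41 and -1.25, and Edem1, which acts in the disposal of misfolded glycoproteins, was at -1.26 and -0.72.

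Of the 16 cytosolic and nuclear J proteins, 2 were more than 2-fold higher and 1 lower in each genotype, with medians of 0.13 and 0.07. Dnajc21 and Dnajc2, which act in ribosome assembly and at the ribosome, were higher, by 1.36 and 1.13 for WT and by 1.22 and 1.20 for Nr4a-TKO. Dnajb4, a close relative of Dnajb1, was lower, at -1.37 and -1.46, with 1 other probe at 0.32 and 0.26, and Dnajc9 was at -0.63 and -0.54. Among 15 other Hsp70, Hsp110 and small heat shock genes 12 were measured, with 2 past 2-fold in each direction in each genotype. The higher pair was Hspa4l, at 2.48 and 2.05, and Hspa4, at 1.64 and 1.44, both relatives of Hsph1, and the lower pair was Hspa1a and Hspa1b. In WT the 4 probes of Hspa4l ran from 0.73 to 2.67 and those of Hspa4 from -0.41 to 1.64.

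Hsf1 and Hsf2, the genes for heat shock factors, were higher at 3 h but within 2-fold. Hsf1 read 7.16 on WT naive T, 6.99 on Nr4a-TKO naive T, 7.86 on WT iTreg at 3 h and 7.55 on Nr4a-TKO iTreg at 3 h. Hsf2 read 5.59, 5.12, 5.98 and 5.45. The differences were 0.71 and 0.56 for Hsf1 and 0.39 and 0.33 for Hsf2. For Hsf2 the difference in Nr4a-TKO was less than 2 SD of the arrays (0.35), and its 1 probe was dim, at 29.5 to 64.2 in processed intensity. Of the 5 measured genes in this list of 6, 1 was more than 2-fold higher in each genotype, Atf5, a factor of the mitochondrial stress response, at 1.92 and 1.17. Hsf4 was at 0.03 and 0.16 and Hsbp1, which binds Hsf1, at -0.21 and -0.38. RNA levels of a factor do not show its activity.

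**Figure D4:**
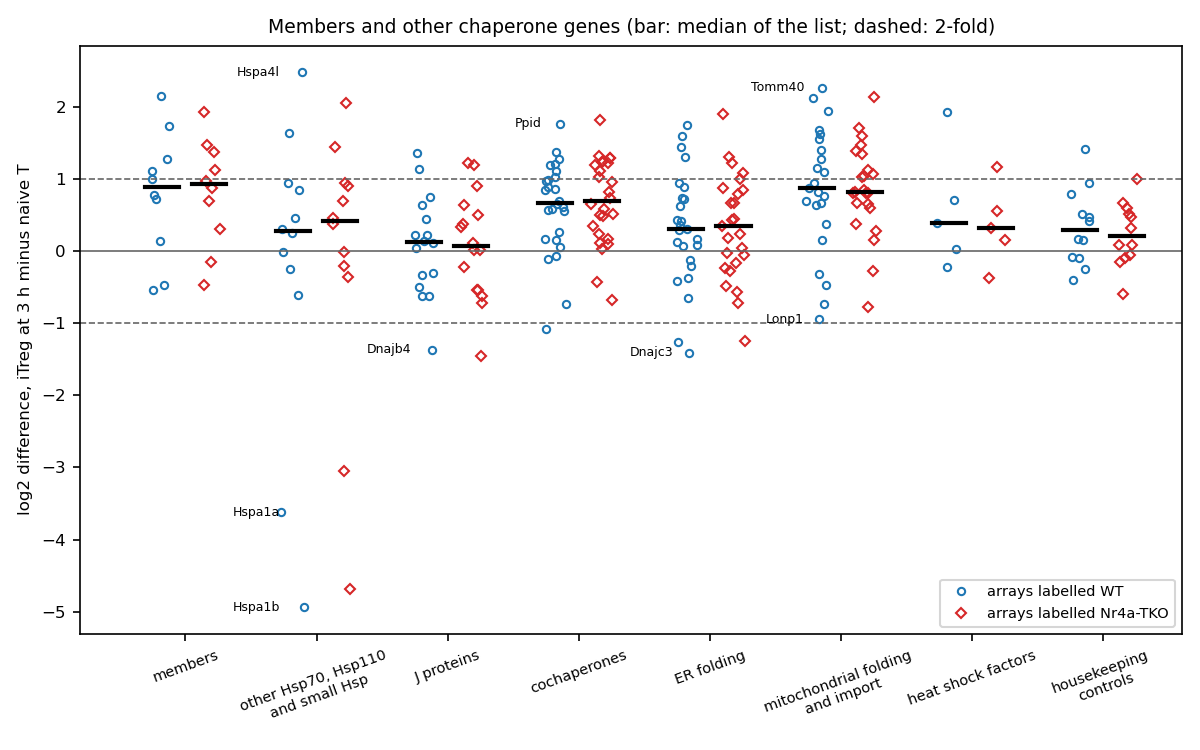
Log2 difference of iTreg at 3 h minus naive T (y axis) for the members, 6 lists of other chaperone genes and 12 housekeeping genes (x axis), circles for the arrays labelled WT and diamonds for those labelled Nr4a-TKO, 1 point per gene; bars mark each list's median, dashed lines 2-fold. The medians of the mitochondrial list, 0.88 and 0.83, lie near those of the members, 0.88 and 0.93, and Hspa1a and Hspa1b lie far below all other genes shown.

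Of 15664 genes detected above background throughout, the 5 whose profile lay nearest to the members' median profile were P4hb, Gm19710, Slc5a10, Psmd14 and Rbis, each with a root mean square distance of 0.013 to 0.019 on the log2 scale over the 4 arrays. P4hb, protein disulphide isomerase, also belongs to the ER list and read 7.70, 7.69, 8.58 and 8.58. With 4 arrays, such likeness describes these samples only.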

How the data were processed

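Total RNA of the 4 samples was hybridised to single-colour Agilent mouse arrays, 1 array per condition. The authors deposited, per array, spot-level output of Agilent Feature Extraction 11.5.1.1: foreground and local background intensity, an intensity processed by that software, and flags. Probe coordinates use mm9. A log2 value matrix was deposited as well. RMA is named in the methods, but the matrix equals the log2 processed intensity after each array's 75th percentile is subtracted.

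Differences were computed from the spot intensities, following RMA: normexp background correction (offset 0), quantile normalization and log2, with limma 3.58.1 in R 4.3.3 and data.table (1.17.8). Control spots and outlier-flagged spots (115 to 160 per array) were left out. Later steps used Python 3.11.15, pandas 2.3.3, numpy 2.4.6 and matplotlib 3.10.9. Probes were named through RefSeq transcripts (32994), symbols (10224) or synonyms (520), or by the files' own name (8036), with 4831 unnamed. A gene took its probe with the highest mean. A comparison needed 1 of its 2 arrays well above background, and a dim probe was raised to the lowest value well above background on its array. The array SD came from repeated spots within each array, over probes with 5 or more spots (285 to 287 per array). No test was possible with 1 array per condition. The counting of genes past 2-fold was tested on simulated data.

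The members, lists and tests were chosen with earlier results of these data known. Named genes are all members, the 2 largest rises and the 2 largest falls in WT of each chaperone list, those past 2-fold between genotypes, Hspa1a, Hspa1b, Hsf1 and Hsf2, defining cell markers, the Nr4a genes and the 5 genes with the profile most like the members'. Itgam, Csf1r, Cd22, Cd8b1, Adgre1 and Ncr1 were named after their values were seen. The level of 1 defining marker is not reported here. The alternatives were 75th-percentile scaling, an offset of 50, no background correction, array-median centring, the deposited values, the mean of a gene's probes, a stricter filter or none on dim probes, thresholds of 1.5-fold and 3-fold, and the mean in place of the median.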

Additional observations from a re-analysis of the deposited data

Results flagged for a closer look

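The change of Lonp1, a mitochondrial protease, ran in opposite directions on the 2 genotype labels, at -0.94 in WT and 1.35 in Nr4a-TKO. Edem1 differed between the genotype labels by -0.36 in naive T and by 0.18 at 3 h, and Hspa4l by 0.23 and -0.19. The other 3 Hspa4l probes ran from -0.06 to 1.24 in naive T and from -0.35 to -0.08 at 3 h. The other Edem1 probe gave -0.56 and -0.16, the same sign at both stages, and the 0.18 is barely above the array SD of 0.17. Each is singled out because both values exceed the array SD with opposite signs. Other genes of the chaperone lists also met this rule, so those named here are not a full list. With 1 array per condition these differences were not tested.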

How the results depend on the processing

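Of 116 comparisons of the members' counts and medians with their alternatives, 110 moved by less than the array SD or 1.5 times. Of 544 others (single genes, chaperone-list counts and shares of all genes), 125 moved by more. Array-median centring moved the members' median to 1.13 in WT and 1.22 in Nr4a-TKO, where the median of all genes was 0.07 and 0.08. Over all normalizations, filters and probe rules, between 3 and 6 members were past 2-fold higher in WT and between 4 and 6 in Nr4a-TKO. A threshold of 1.5-fold placed 7 members higher in each genotype, and one of 3-fold placed 2 in WT and 1 in Nr4a-TKO, by construction. The shares of all genes under these settings and thresholds are not given here, so no excess of members is read from these counts. Under 5 other normalizations 22 of 23 member probes kept the sign of both changes, the exception being the brightest probe of Hsp90aa1. With the mean of all probes, Hsph1 in WT was 0.98, below 2-fold, and Hsp90aa1 was 0.13 in WT and 0.25 in Nr4a-TKO. No paired analysis was possible because each condition has 1 array. The arrays' number limits the precision, and dim probes such as those of Hspa1a and Hspa1b at 3 h depend most on background correction.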
